A study of Drosophila melanogaster with 4 samples.

Results

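The control fat body of the late larva is described here from 2 of the 4 libraries of the series, both of the group labelled Con. These larvae were of the yw strain and carried the driver dMef2-Gal4 together with the construct UAS-white-RNAi, and their fat bodies were taken at 110 h after egg laying, 10 pooled per library. The driver is used to express the construct in muscle, and whether it is also active in fat body was not tested. The series asks what perturbing complex I in muscle does to the fat body, and the larvae in which ND-75 was targeted are not compared here. Both groups of the series share the driver and the strain. The tables were joined by locus and gave 13990 gene symbols, of which 13881 had a status of OK in both libraries, and those genes were ranked by their mean FPKM. FPKM counts fragments per kilobase of transcript relative to the size of the library, so it compares genes per unit of length.

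The fat body is the insect organ that joins the tasks of a liver and of adipose tissue. It stores triglyceride and glycogen, makes trehalose and lipoproteins for the haemolymph, and produces immune effectors. At the end of larval growth it secretes storage proteins in bulk and later takes them back up as an amino acid reserve for metamorphosis. Storage proteins of the hexamerin family, such as the larval serum proteins, are the best known of its products. Salivary glands run beside it and carry strips of it, the larval gonads are embedded in it, and haemocytes circulate around it.

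The libraries were of nearly the same depth. FPKM of low genes fell on steps, since a whole fragment adds a fixed amount to a gene, and the commonest ratio of replicate 2 to replicate 1 was 0.981, found in 239 of 2115 genes with a mean below 1 FPKM and values above 0 in both. That ratio puts the depth of replicate 2 at 1.02 times that of replicate 1. The bounds deposited with each FPKM imply 9548000 and 9776000 fragments in replicates 1 and 2, with a median of 170.04 and 192 fragments per expressed gene. These sums cover only symbols on 1 line with a status of OK, without Lsp1beta, Lsp1gamma and Lsp2, so they are not the library sizes. The implied numbers were whole, within 0.01, for 72.4% and 73.8% of the genes at 1 to 20 fragments, so they are not exact for every gene. High genes can be off as well: RpL5, at 2384 and 2494 FPKM, had 23354 and 14169 implied fragments. The labels do not say whether the replicates came from separate crosses or days, and the spread between them may be technical. With 2 libraries of 1 group there is no contrast to test, so both values are given and no p-value. Bulk RNA cannot tell apart fewer cells of a type and less RNA per cell.

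The libraries carried the signature that the tissue label calls for. Of 14 fat body markers, 11 had a status of OK, and all 11 stood above 1 FPKM in both libraries, with a median of 1213 FPKM in replicate 1 and 1330.4 FPKM in replicate 2. They ranged from the fat body protein gene Fbp2 at 29137 and 33073 FPKM to serpent (srp), the GATA factor of fat body and blood, at 43.4 and 46.6 FPKM. The other 3 markers, the larval serum protein genes Lsp1beta, Lsp1gamma and Lsp2, were listed at 0 in both libraries with a status for too many fragments. Such a 0 is a failed estimate, and their level is not known from these tables. Shares of the FPKM total and ranks are therefore shares and ranks among the genes that could be estimated.

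The gene targeted in the controls was low in the tissue. White (w), the transporter gene for eye pigment precursors, stood at 2.48 and 5.37 FPKM, about 72 and 159 implied fragments, and the deposited bounds of the libraries did not overlap. The yw strain is also named for a mutation of w, so the level of an intact white gene is not known from these libraries. Yellow (y), the pigmentation gene whose mutation gives the strain part of its name, stood at 0.202 and 0.158 FPKM, about 5 and 4 fragments. Neither value measures a knockdown in muscle. ND-75, a core subunit gene of complex I listed as ND75, was at 46.6 and 43.9 FPKM, and Mef2, the muscle factor whose promoter names the driver and which also acts in fat body, was at 9.47 and 6.76 FPKM.

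At a minimum of 1 FPKM in both libraries, 9180 genes (66.1%) were expressed. A further 279 reached 1 FPKM in replicate 1 only and 384 in replicate 2 only, 4038 were below it in both, and 1427 of those were listed at 0 in both. By mean level, 4286 genes lay below 1 FPKM, 5202 from 1 to 10, 3651 from 10 to 100, 611 from 100 to 1000 and 131 at 1000 or more. These top 131 genes held 65.8% and 64.3% of the summed FPKM. The 5202 genes from 1 to 10 FPKM held 2.72% and 2.90%. A gene fell in the same class in both libraries in 12505 cases (90.1%), and 52 genes were more than 1 class apart. The high class was made of short genes: the median exon length was 960 bases at 1000 FPKM or more and 2030.5 bases at 1 to 10 FPKM. Expressed genes made up 64.4% to 68.7% of the genes on the arms 2L, 2R, 3L, 3R and X, and 75.9% of the 83 on chromosome 4.

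**Figure D1:**
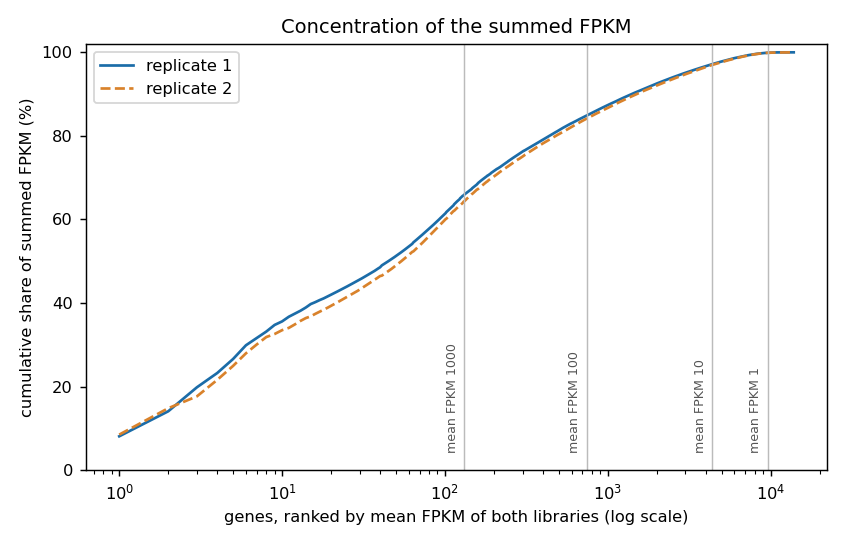
Cumulative share of the summed FPKM (vertical axis, %) against genes ranked by the mean FPKM of both control libraries (horizontal axis, log scale), 1 line per library, with grey lines where the mean FPKM passes 1000, 100, 10 and 1. The 10 highest genes hold 35.6% in replicate 1 and 33.5% in replicate 2, and the 131 genes at 1000 FPKM or more hold 65.8% and 64.3%.

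Very few genes supplied most of the signal. The highest gene held 8.10% and 8.49% of the summed FPKM, the 10 highest 35.6% and 33.5% (mean 34.5% ± 1.48, SD, n = 2), and the 100 highest 61.3% and 59.9%. In replicate 1, 45 genes added up to 50% of the total, against 54 in replicate 2. Of the 100 highest genes, 65 encoded cytoplasmic ribosomal proteins and 5 were salivary gland markers. Under 1 kb of exon length were 57 of the 100, against 21.9% of the 13230 protein-coding genes with a length. In 11 cases another of the 100 lay within 10 kb.

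**Figure D2:**
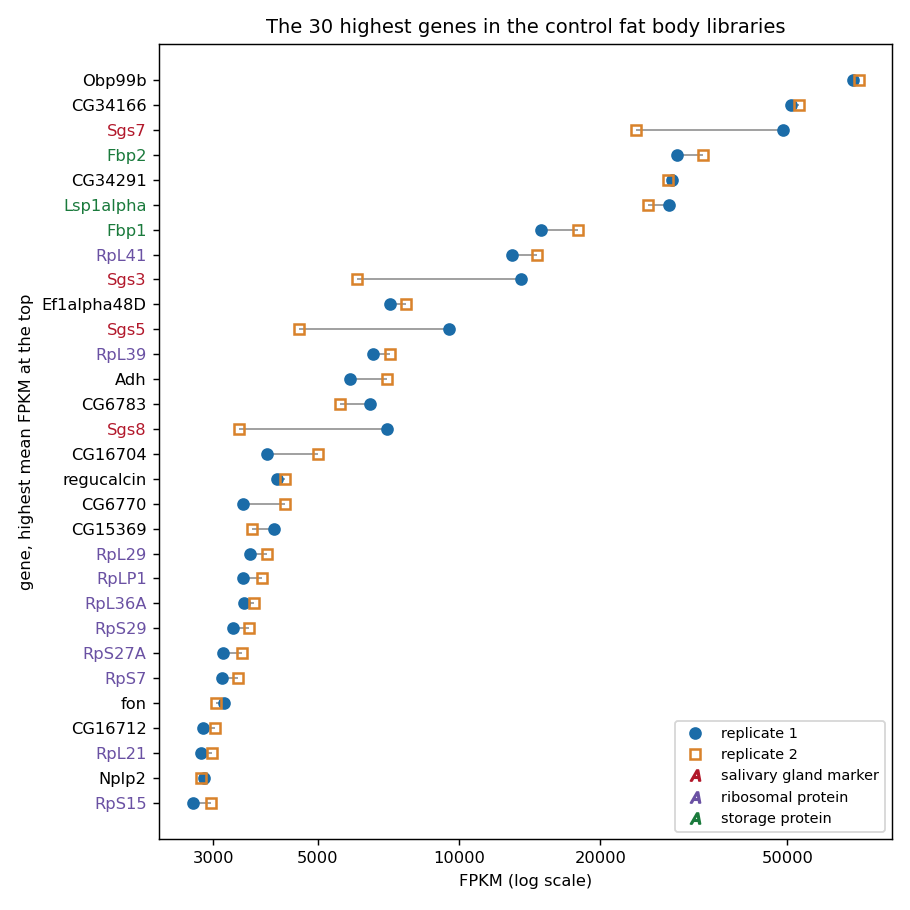
FPKM (log scale) of the 30 highest genes by mean, with replicate 1 as filled circles and replicate 2 as open squares, joined by a line. Gene names are coloured for salivary gland markers, ribosomal proteins and the storage list (Fbp2, Lsp1alpha and Fbp1, drawn as storage protein). The pairs lie close together except for Sgs7, Sgs3, Sgs5 and Sgs8, which stand more than 2-fold higher in replicate 1.

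The highest gene was Obp99b, on arm 3R at 25541974 to 25542532, a member of the family of odorant-binding proteins, small secreted carriers named for their role in antennae. It stood at 68905 FPKM in replicate 1 and 71085 FPKM in replicate 2. The family was otherwise split between a few high genes and many near 0. Obp99c was at 1491 and 1710.2 FPKM, Obp99a at 439.8 and 462.7 FPKM, and Obp44a at 339.2 and 326.6 FPKM. Of the 9 listed members, Obp28a (listed as Pbprp5) was listed at 0 in both libraries, and Obp56e and Obp19d (listed as Pbprp2) were below 1 FPKM in both. Obp56d was the only 1 of the 9 past 2-fold between libraries, at 0.974 and 128.8 FPKM, about 5 and 674 fragments. The 9 genes together held 8.36% and 8.81% of the summed FPKM, nearly all of it from Obp99b.

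The genes of the storage list with an estimate were all among the 10 highest genes. Fbp2, on 2L at 9426860 to 9427835, is a fat body protein related to alcohol dehydrogenase that accumulates in late larvae, and it stood at 29137 and 33073 FPKM. Lsp1alpha, on X at 12384416 to 12386933, encodes a subunit of larval serum protein 1 and stood at 28004 and 25267 FPKM. Fbp1, on 3L at 14087687 to 14091156, encodes the receptor through which storage proteins are taken back up, and it stood at 14971 and 17897 FPKM. Lsp1alpha was lower and both Fbp genes were higher in replicate 2, each by less than 1.5-fold. Together the 3 genes held 8.47% and 9.11% of the summed FPKM, with Lsp1beta, Lsp1gamma and Lsp2 missing from the sum. Of this, Lsp1alpha, the only larval serum protein gene of the 3, held 3.29% and 3.02%.

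FPKM is per length, and multiplying it by exon length gives a figure closer to the mass of RNA. On that scale Lsp1alpha came first, with 6.26% and 5.61% of the product summed over genes, and Fbp1 came next, with 4.42% and 5.25%. Obp99b took 3.49% and 3.57%, Fbp2 2.67% and 3.01%, and CG34166 2.66% and 2.74%. In the mean of the libraries the storage list held 8.79% of the FPKM and 13.6% of the product. A long gene that this scale ranks far higher is apolpp, listed as Rfabg, the apolipophorin gene that makes the scaffold of the haemolymph lipoprotein. It ranked 38th by FPKM, at 2688 and 2237 FPKM, and 6th by the product, with 2.69% and 2.23%.

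Other secreted proteins of the haemolymph were also among the 100 highest genes. Fondue (fon), a protein of the haemolymph clot, stood at 3152 and 3036 FPKM. Nplp2, a secreted peptide precursor, stood at 2861 and 2827 FPKM. CG16704, CG16712 and CG16713 encode small Kunitz-type protease inhibitors and lie side by side on 2L between 3692138 and 3696661. Their levels were 3898 and 5004 FPKM, 2853 and 3025 FPKM, and 2524 and 3141 FPKM, so all 3 were higher in replicate 2, each by less than 1.5-fold. TotA, a stress-induced haemolymph peptide of the Turandot family, was at 1665 and 1890.3 FPKM. The chitinase-like growth factor genes were all expressed, 6 of 6, led by Idgf6 (listed as Chit) at 1452 and 1601 FPKM and Idgf4 at 819.95 and 868.1 FPKM, then Idgf3 at 167.2 and 191.6 FPKM and Idgf2 at 140.9 and 140.3 FPKM. Npc2g, of the family of sterol-binding NPC2 proteins, stood at 1421 and 1594 FPKM.

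Several genes of the highest ranks have no role that could be given here. CG34166, on 2L at 14743253 to 14743859, was second of all genes at 50966 and 52919 FPKM. CG34291, on 3R at 22251045 to 22251503, ranked 5th at 28442 and 27896 FPKM. Its exon length was 267 bases, and it ranked 13th by FPKM times exon length. It rested on about 16245 and 16240 implied fragments, against 627440 and 762206 for Fbp1, so its rank by FPKM depends on its short length. CG6770 stood at 3467 and 4266 FPKM and CG15369 at 4039 and 3628 FPKM. CG31775 would have joined them, but both of its lines had a status for low data. Their FPKM summed to 7112 and 9350 and are not part of any rank or share.

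Haemolymph signals were present over a wide range. Of 14 listed genes for secreted signals, 12 were at 1 FPKM or more in both libraries, and 11 were higher in replicate 2, none by 2-fold. The median log2 difference of the list was 0.10, against 0.04 over all expressed genes. After Nplp2 came the growth-blocking peptide gene Gbp2 (listed as CG11395) at 260.8 and 280.2 FPKM, then Ilp6, the insulin-like peptide that the fat body itself makes, at 87.2 and 91.1 FPKM. Stunted (sun), an ATP synthase subunit gene whose product also acts as a circulating signal of the fat body, was at 86.3 and 86.4 FPKM. The leptin-like cytokine gene upd2 was listed at 0 in both libraries. Genes listed for iron storage and transport were expressed throughout, 9 of 9, with Transferrin 1 (Tsf1) at 547.6 and 599.9 FPKM, the ferritin light chain gene Fer2LCH at 326.6 and 346.5 FPKM and the heavy chain gene Fer1HCH at 255.7 and 271.99 FPKM. IRP-1B (listed as Irp-1B), which is on this list by its name and is not a carrier, was at 281.4 and 384 FPKM.

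Inhibitors and recognition proteins of the humoral immune system stood at moderate levels. Of 18 serpins, the suicide inhibitors of serine proteases, 10 were at 1 FPKM or more in both libraries. Spn43Ab was highest at 191.6 and 207.4 FPKM, followed by Spn42Da (listed as Spn4) at 155.02 and 160.2 FPKM, Spn88Eb at 147.1 and 132.9 FPKM, and necrotic (nec), which restrains the Toll pathway, at 107.2 and 118.3 FPKM. Spn31A and Spn75F were listed at 0 in both, and Spn42De, Spn77Bb, Spn38F (listed as Spn3), Spn100A and Spn85F were below 1 FPKM in both. The opsonin-like thioester protein genes Tep2 and Tep4 (listed as TepII and TepIV) stood at 143.8 and 136.7 FPKM and at 126.4 and 126.2 FPKM, Mcr at 8.34 and 10.6 FPKM and Tep1 at 4.41 and 7.38 FPKM. Among 14 recognition genes, the beta-glucan receptor gene GNBP3 led at 188.7 and 204.7 FPKM, then PGRP-SA and PGRP-SD of the Toll branch at 65.2 and 78.1 FPKM and at 52.07 and 82.8 FPKM, and PGRP-LE of the Imd branch at 17.6 and 19.7 FPKM. PGRP-LF, PGRP-SC1a and PGRP-SC1b were below 1 FPKM in both.

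The machinery that makes and exports these proteins was strongly expressed. The 86 cytoplasmic ribosomal protein genes with an estimate held 19.4% and 21.5% of the summed FPKM, 76 of them at 1000 FPKM or more in both libraries and 81 at 100 or more. RpL41, on 2R, stood at 12955 and 14687 FPKM, RpL39 at 6568 and 7139 FPKM, RpL29 at 3595 and 3901 FPKM and RpLP1 at 3472 and 3799 FPKM. In 81 of the 86 the value was higher in replicate 2, with a median log2 difference of 0.12, against 0.04 over all expressed genes. A share also depends on the other genes in the total. With the salivary gland markers described below taken out, the share of the 86 was 21.5% and 22.6%. The 5 lowest were RpL37-2 (listed as RpL37b), RpS5b, RpS10a, RpL10Aa and RpS28a, all copies of another ribosomal gene, from 20.3 and 16.9 FPKM for the highest to 0 and 3.46 FPKM for RpS28a. RpSA, listed as sta, was left out because its estimate failed in replicate 2. Translation factors held 1.72% and 1.79%, led by eEF1alpha1 (listed as Ef1alpha48D), which brings aminoacyl-tRNA to the ribosome, at 7145 and 7694 FPKM, then eIF5A (listed as eIF-5A) at 1598 and 1614 FPKM, eEF2 (listed as Ef2b) at 1511 and 1516 FPKM and eEF1gamma (listed as Ef1gamma) at 1217 and 1190.4 FPKM.

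Genes of the secretory pathway were expressed in full, 15 of 15, and were lower in replicate 2 in 14 of 15 cases, with a median log2 difference of -0.42 and none past 2-fold. Protein disulfide isomerase (Pdi) stood at 1254 and 831.9 FPKM, the chaperone calreticulin (Calr, listed as Crc) at 891.7 and 763.5 FPKM, the chaperone Hsc70-3 at 652.9 and 461.5 FPKM and the translocon subunit Sec61beta at 564.7 and 417.8 FPKM. The median over all expressed genes was 0.04 on the same scale, and the salivary gland genes described below were lower in replicate 2 as well. The part of those cells in the lower values was not tested. Basement membrane genes, 8 of 8 expressed, included SPARC (listed as BM-40-SPARC), a collagen-binding protein, at 393.5 and 399.1 FPKM, the perlecan gene trol at 182.2 and 156.97 FPKM, and the collagen IV genes Col4a1 (listed as Cg25C) and vkg at 182.2 and 143.3 FPKM and at 88.5 and 62.96 FPKM.

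The list for lipid synthesis and droplets was the heaviest of the metabolic lists. Its 19 genes held 1.399% and 1.325% of the summed FPKM, with 17 at 1 FPKM or more in both libraries. The fatty acid binding protein gene fabp, listed as CG6783, stood at 6450.4 and 5591 FPKM and alone held 0.758% and 0.668%. The first place of the list rests on this gene, as complexes II to V of the respiratory chain held 0.785% and 0.812%. The desaturase gene Desat1 (listed as desat1) was at 1275 and 1302 FPKM, Lsd-1, the perilipin that coats lipid droplets, at 1213 and 1330.4 FPKM, and the acyl-CoA binding protein gene Acbp2 (listed as Dbi) at 713.6 and 803.5 FPKM. FASN2 (listed as v(2)k05816) and Dgat2 (listed as CG1942) were below 1 FPKM in both, while FASN1 (listed as CG3523), the other fatty acid synthase, was at 585.9 and 450.3 FPKM. All 15 matched genes for lipolysis and beta-oxidation were expressed, with the dehydrogenase gene Mcad (listed as CG12262) at 737.1 and 859.9 FPKM, scully (scu) at 617.4 and 684.3 FPKM, the thiolase gene yip2 at 517.7 and 513.1 FPKM and the hydratase gene Echs1 (listed as CG6543) at 291.2 and 307.6 FPKM. Among lipid carriers, Mtp, which loads lipid onto apolpp, stood at 107.2 and 105.5 FPKM, crossveinless d (cv-d, listed as CG31150) at 39.5 and 35.0 FPKM, and Apoltp (listed as CG15828), the lipid transfer particle, at 33.4 and 24.3 FPKM. The lipocalin gene GLaz was below 1 FPKM in both.

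**Figure D3:**
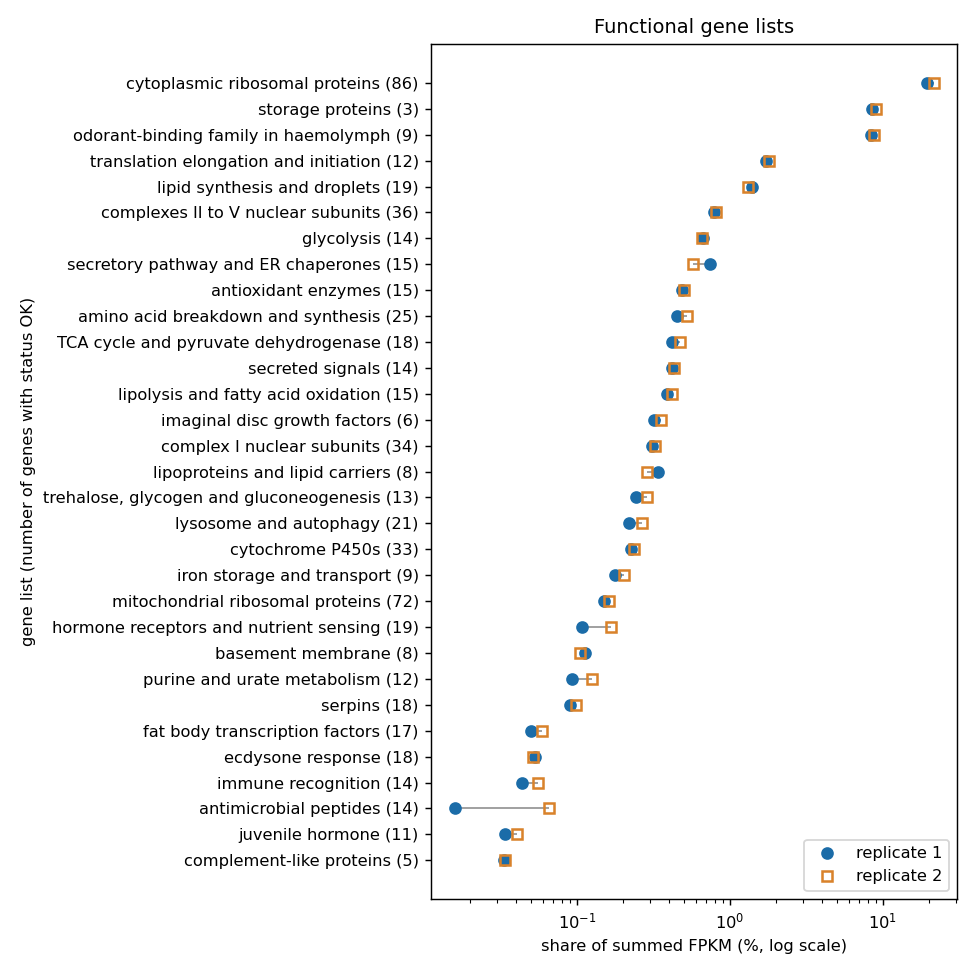
Share of the summed FPKM (%, log scale) held by each of 31 functional gene lists in replicate 1 (filled circles) and replicate 2 (open squares), with the number of genes with status OK in brackets. Ribosomal proteins (19.4% and 21.5%), the storage list and the odorant-binding family stand apart at the top, and antimicrobial peptides show the widest gap between libraries (0.0161% and 0.0663%). The list drawn as storage proteins holds Fbp2, Lsp1alpha and Fbp1, of which only Lsp1alpha encodes a larval serum protein.

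Adh, the alcohol dehydrogenase gene, stood at 5865 and 7016 FPKM and ranked 13th of all genes. Regucalcin, a calcium-binding protein gene whose mammalian relative is abundant in liver, was at 4106 and 4265 FPKM. Carbohydrate genes followed. Glycolysis held 0.669% and 0.658% of the summed FPKM, and 13 of 14 genes were expressed. Aldolase (Ald1, listed as Ald) stood at 1298 and 1288 FPKM, Gapdh1 at 1277 and 1182 FPKM, Gapdh2 at 642.02 and 677.3 FPKM and enolase (Eno) at 491.2 and 459.2 FPKM. Hexokinase C (Hex-C) was below 1 FPKM in both, while Hex-A was at 41.5 and 41.2 FPKM. All 13 genes for trehalose, glycogen and gluconeogenesis were expressed. Pepck1 (listed as Pepck), which starts gluconeogenesis from oxaloacetate, stood at 334.9 and 579.4 FPKM, pyruvate carboxylase (PCB, listed as CG1516) at 402.5 and 444.1 FPKM, fructose bisphosphatase (fbp) at 240.6 and 272.1 FPKM and the trehalose transporter gene Tret1-1 at 259.1 and 224.7 FPKM. The values for Pepck1 differed most of the 13, higher in replicate 2 and short of 2-fold.

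Respiratory genes were expressed almost completely. Of 34 nuclear genes for complex I, 33 were above 1 FPKM in both libraries, with medians of 67.9 and 63.6 FPKM, and none was past 2-fold. ND-MLRQ (listed as CG32230) led at 372.4 and 415.2 FPKM, and ND-B8 (listed as CG15434) was the exception at 0.348 and 0.342 FPKM. For complexes II to V, 36 of 36 were expressed, with higher medians of 172.6 and 172.3 FPKM, led by ATPsynC (listed as CG1746), the rotor ring of ATP synthase, at 533.1 and 531.7 FPKM. Mitochondrial ribosomal protein genes were expressed in 72 of 72 cases, at medians of only 15.4 and 16.4 FPKM against 1768 and 1940.2 FPKM for the cytoplasmic set. Genes listed for the citric acid cycle and pyruvate dehydrogenase were expressed in 18 of 18 cases. The highest were the malate dehydrogenase gene Mdh1 (listed as CG5362) at 1017 and 1081 FPKM, isocitrate dehydrogenase (Idh) at 456.3 and 566.1 FPKM and Mdh2 (listed as CG7998) at 442.3 and 459.1 FPKM. The list is broader than the cycle, since Mdh1 is a cytosolic form and Idh is the NADP-dependent form.

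Amino acid and detoxification genes were expressed in most cases. Of 25 matched genes of amino acid metabolism, 22 were expressed, with Gnmt (listed as CG6188), the glycine methyltransferase that uses up methyl donors, at 621.1 and 977.8 FPKM, the glutamine synthetase gene Gs1 at 778.4 and 802.2 FPKM, the phenylalanine hydroxylase gene Hn at 383.9 and 453.5 FPKM and pumpless (ppl), of the glycine cleavage system, at 357.04 and 385.1 FPKM. The tyrosine breakdown gene Hpd (listed as CG11796) and the kynurenine hydroxylase gene cn were below 1 FPKM in both, and hgo was listed at 0 in both. Purine synthesis was led by Paics (listed as ade5) at 349.8 and 494.4 FPKM, Gart (listed as ade3) at 77.0 and 153.3 FPKM and Prat2 at 73.5 and 108.8 FPKM, all higher in replicate 2. Of 33 cytochrome P450 genes with an estimate, 27 were expressed and 4 reached 100 FPKM in both, namely Cyp4d1 at 795.8 and 816.7 FPKM, Cyp4e2 at 222.6 and 215.9 FPKM, Cyp28a5 at 215.7 and 192.3 FPKM and Cyp6g1 at 130.9 and 217.5 FPKM. Cyp6g2, Cyp49a1, Cyp18a1 and Cyp6a20 were below 1 FPKM in both, and Cyp12d1-p had no usable estimate. Antioxidant enzymes were expressed in 15 of 15 cases, with GstD1 at 1262 and 1051 FPKM, the peroxidase gene PHGPx at 769.9 and 855.96 FPKM, catalase (Cat) at 701.4 and 722.04 FPKM and Sod1 (listed as Sod) at 383.997 and 406.8 FPKM.

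Hormone genes differed widely in level, and no other stage was compared. At the receptor level EcR, the ecdysone receptor, was at 25.7 and 29.4 FPKM. Of 18 ecdysone response genes, 12 were expressed, beside 66.1% of all genes, so the count does not set the list apart. The highest were Eip71CD at 222.9 and 188.4 FPKM, shade (shd), which activates ecdysone in the fat body, at 81.5 and 81.01 FPKM, broad (br) at 41.9 and 53.3 FPKM and Eip74EF at 30.05 and 28.2 FPKM. Hr3 (listed as Hr46), Hr4, Blimp-1, Eip93F and Cyp18a1, genes tied to the ecdysone pulses around pupariation, were below 1 FPKM in both. The juvenile hormone epoxide hydrolases Jheh3, Jheh2 and Jheh1 stood at 119.7 and 138.3 FPKM, 85.4 and 109.2 FPKM, and 55.7 and 66.1 FPKM, whereas the esterase gene Jhe was at 0.674 and 0.923 FPKM. Jhedup and Jhbp12 (listed as CG13618) were also below 1 FPKM in both. The adipokinetic hormone receptor gene AkhR (listed as GRHR) was at 73.9 and 70.3 FPKM, and the insulin receptor gene InR at 1.68 and 1.76 FPKM. Thor, the translation repressor 4E-BP that is induced when insulin signalling is low, was at 662.1 and 1147 FPKM, and the sugar-responsive factor sugarbabe (sug) at 55.6 and 122.4 FPKM, past 2-fold. Both were higher in replicate 2. The other leading factors differed little, with SREBP (listed as HLH106) at 65.9 and 65.5 FPKM and Mondo (listed as Mio) at 61.7 and 60.7 FPKM. Lysosomal genes included cathepsin D (cathD) at 722.7 and 918.3 FPKM, the cholesterol transfer gene Npc2a at 300.7 and 324.2 FPKM, the autophagy gene Atg8a at 275.8 and 342.03 FPKM and Lamp1 (listed as CG3305) at 153.3 and 151.4 FPKM.

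The libraries were close over most of the range. Across the 9180 expressed genes, Pearson's r of log2(FPKM + 1) was 0.971 and Spearman's rho 0.954, as a description across genes, which are not replicates and share a library. The median log2 difference, replicate 2 minus replicate 1, was 0.04, the median absolute difference 0.20 and its 95th percentile 0.87. Within 1.5-fold were 8073 genes (87.9%). Past 2-fold were 219 genes higher in replicate 2 (2.39%) and 110 lower (1.2%), and over all 13881 genes the shares were 2.49% and 1.21%. The deposited bounds did not overlap for 2400 of the expressed genes (26.1%), and 294 of the 329 past 2-fold were among them. The share without overlap grew with level, from 20.2% at 1 to 10 FPKM to 88.5% at 1000 FPKM or more, while the median half-width of the bounds narrowed from 22.9% and 22.2% of the FPKM to 1.81% and 1.69%. The median absolute log2 difference narrowed less, from 0.26 to 0.14. The bounds thus cover less than the spread between these libraries for the high genes.

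**Figure D4:**
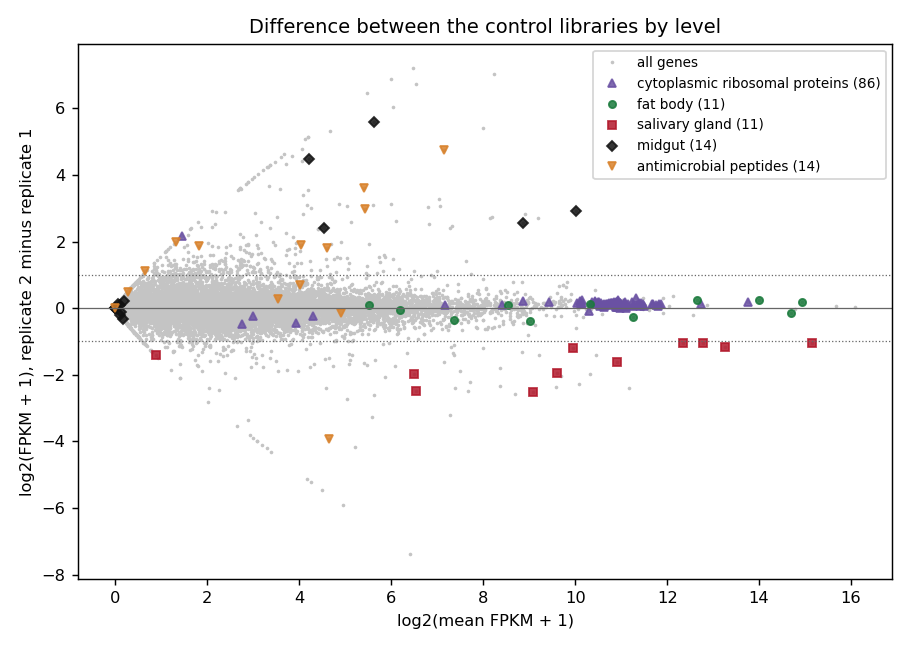
Difference in log2(FPKM + 1), replicate 2 minus replicate 1 (vertical axis), against log2 of the mean FPKM + 1 (horizontal axis) for 13881 genes, with 5 gene lists coloured and dotted lines at 2-fold. Ribosomal protein and fat body genes lie within the lines except for RpS28a, at 0 and 3.46 FPKM, the 11 salivary gland markers all lie below the lower line, and 5 of 14 midgut markers and 8 of 14 antimicrobial peptides lie above the upper line.

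Salivary gland genes were lower in replicate 2 throughout. The glue protein genes, which encode the secretion that sticks the pupa to its substrate, ranked high: Sgs7, on 3L at 11502961 to 11503347, stood at 48873 and 23766 FPKM, Sgs3 at 13533 and 6069 FPKM and Sgs5 at 9507 and 4558 FPKM. Sgs8, beside Sgs7, stood at 7011 and 3401 FPKM. All 11 markers of the list were 2-fold or more lower in replicate 2, against 1.21% of all genes in that direction. Of these, ng4, at 1.67 and 0 FPKM, rested on about 1 and 0 implied fragments, and its deposited bounds overlapped. Their summed FPKM was 85658 and 39874, 10.1% and 4.76% of the total, and Sgs1 went furthest at 924.6 and 159.2 FPKM. The labels name fat body as the tissue and no other. With the 11 genes taken out of the total, the fat body markers held 10.9% and 11.0% in place of 9.77% and 10.5%, and ribosomal proteins held 21.5% and 22.6%. The FPKM share of the salivary list depends on short genes, as Sgs7 has an exon length of 321 bases. By FPKM times exon length, the salivary list held 4.21% and 1.80% and the fat body markers held 17.97% and 18.13%. Among the 742 genes with a mean of at least 100 FPKM, 30 were past 2-fold lower in replicate 2 and 8 of these were on the salivary list. Of genes with a mean of at least 1000 FPKM, CG32198 at 3876 and 741.1 FPKM, CG42779 at 1811 and 371.4 FPKM and CG11300 at 2028 and 513.7 FPKM were lower in replicate 2 and are on no list, whereas Eig71Ee, an ecdysone-induced gene of the salivary list, was at 2903 and 946.7 FPKM. CG42779 rested on only about 421 and 88 implied fragments.

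**Figure D5:**
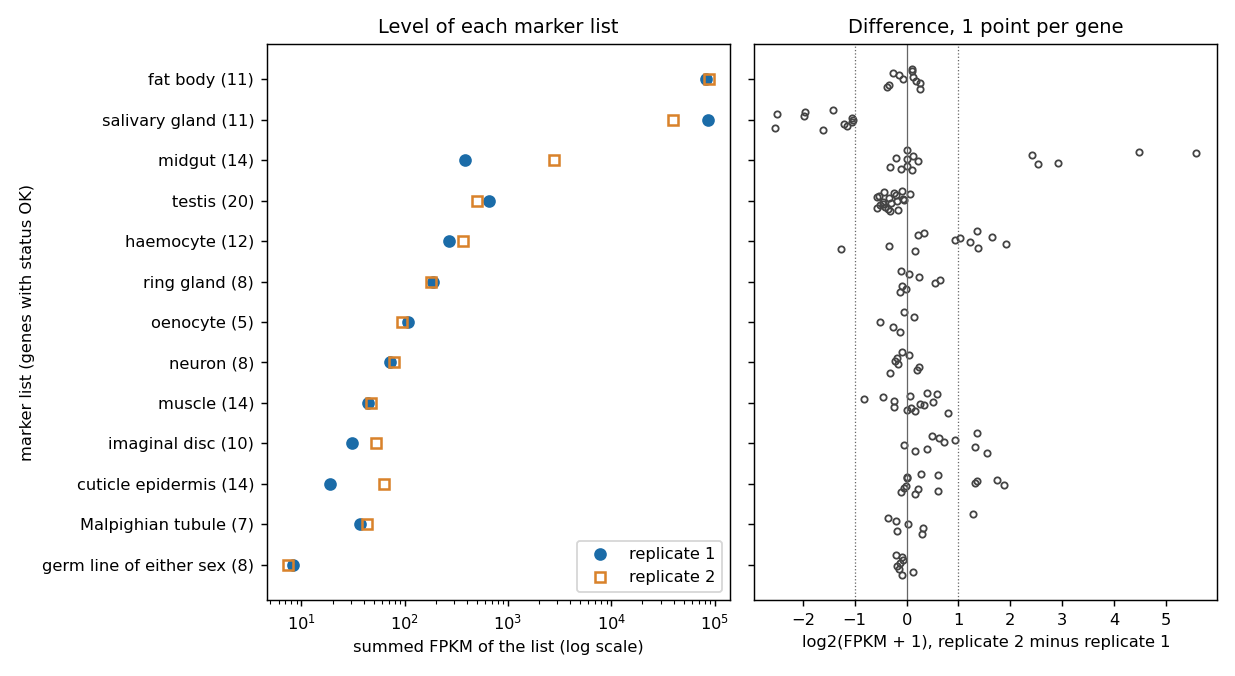
Left, summed FPKM (log scale) of 13 tissue marker lists in replicate 1 (filled circles) and replicate 2 (open squares); right, the log2 difference of each gene, replicate 2 minus replicate 1, with dotted lines at 2-fold. Salivary gland genes lie on the left of the lower line, midgut, haemocyte, cuticle and disc genes spread to the right except for 1 haemocyte gene past the lower line, and the fat body markers stay within the lines.

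Digestive genes went the other way. The serine protease genes Jon65Aiv and Jon65Aiii of the midgut stood at 238.8 and 1819 FPKM and at 135.8 and 795.5 FPKM, and betaTry, a trypsin gene, at 1.004 and 95.4 FPKM, about 8 and 775 fragments. Of 14 midgut markers, 5 were 2-fold or more higher in replicate 2, against 2.49% of all genes, and the other 9 were below 1 FPKM in both, the amylase genes Amy-p and Amy-d among them. The summed FPKM of the list was 383.2 and 2783. By name family, 16 Jon genes summed to 396.7 and 2819 FPKM, 11 trypsin genes of the Try name to 239.0 and 1691 FPKM, and 7 lysozyme genes of the Lys name to 21.3 and 1315 FPKM. LysB stood at 3.59 and 601.04 FPKM and LysD at 0.744 and 183.5 FPKM, while LysP was lower in replicate 2, at 4.37 and 2.32 FPKM. These families hold near-identical neighbours, and how the authors' counting split their reads is not recorded in the labels, so single members are less certain than the sums.

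Antimicrobial peptide genes were low in replicate 1 and higher in replicate 2. Of 14, 8 were 2-fold or more higher in replicate 2 and 1 lower, against 2.49% and 1.21% of all genes. Among the 8, Def rested on about 0 and 3 fragments, CecA2 on 0 and 6 and CecA1 on 1 and 9. The deposited bounds of Def and CecA1 overlapped between the libraries. Diptericin A (DptA, listed as Dpt) stood at 9.03 and 270.7 FPKM, Metchnikowin (Mtk) at 8.64 and 75.2 FPKM and Diptericin B (DptB) at 5.54 and 77.9 FPKM. Drosomycin (Drs), a main target of the Toll pathway, was at 30.6 and 27.4 FPKM, and Cecropin C (CecC) ran against the others at 46.0 and 2.07 FPKM. CecB was listed at 0 in both, and AttD, at 0 and 0.407 FPKM, was below 1 FPKM in both. The summed level was 136.8 and 554.7 FPKM. PGRP-SB1, a peptidoglycan recognition gene, was at 1.84 and 32.4 FPKM. The summed levels of the haemocyte, midgut and cuticle markers were higher in replicate 2 too, and their part in this difference was not tested.

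Blood cell markers were present at low levels. Of 12, 10 were expressed and 6 were 2-fold or more higher in replicate 2 and 1 was lower, against 2.49% and 1.21% of all genes. The summed FPKM was 270.1 and 366.8, of which Col4a1, which the fat body makes as well, gave 182.2 and 143.3 FPKM. The crystal cell genes PPO2 (listed as CG8193) and PPO1 (listed as proPO-A1) stood at 28.9 and 76.4 FPKM and at 18.04 and 47.6 FPKM. The cuticle list was at 19.04 and 62.3 FPKM with 4 of 14 past 2-fold higher in replicate 2 (2.49% of all genes), led by the larval cuticle gene Lcp3 at 8.12 and 22.5 FPKM, then Lcp4 at 5.07 and 19.5 FPKM and Lcp1 at 2.04 and 10.2 FPKM. Cpr49Ac, of the Cpr family of cuticle protein genes but not on the list, stood far higher, at 1583 and 1683 FPKM. The 68 Cpr genes with a status of OK summed to 1607 and 1739 FPKM. The imaginal disc list was at 30.8 and 53.1 FPKM with 3 of 10 past 2-fold higher in replicate 2 (again 2.49% of all genes). Its highest genes, apterous (ap) at 13.1 and 14.8 FPKM and homothorax (hth) at 9.10 and 15.7 FPKM, were not past 2-fold. The 3 were Distal-less (Dll) at 1.90 and 7.504 FPKM, wingless (wg) at 0.273 and 2.28 FPKM and engrailed (en) at 0.400 and 2.50 FPKM.

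Genes tied to sex were mixed. Testis markers were expressed in 18 of 20 cases and were lower in replicate 2 in 19 of 20, none by 2-fold, with summed FPKM of 656.6 and 501.4. Their median log2 difference was -0.33, against 0.04 over all expressed genes. The sperm protein genes Mst84Da, Mst87F and Mst84Db stood at 94.8 and 74.1 FPKM, 76.3 and 55.6 FPKM, and 77.8 and 51.8 FPKM. The dosage compensation RNA roX1 was at 27.1 and 16.3 FPKM and roX2 at 4.84 and 0.584 FPKM, about 18.4 and 2.16 fragments. Of the 7 genes listed as Y-linked fertility genes, 6 were below 1 FPKM in both, and the list summed to 1.90 and 2.24 FPKM, with 4 higher and 2 lower in replicate 2. The other gene, ARY, gave 1.57 and 1.75 FPKM of it and is placed by the deposited loci on the heterochromatin of 3L. Yolk protein genes, products of the adult female, were low except Yp3 at 318.7 and 207.3 FPKM. The labels give no sex for the pooled larvae, and the share of each sex was not tested.

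Other tissues left little. Muscle markers, of interest because the driver acts there, summed to 44.2 and 47.2 FPKM, with Act57B at 6.62 and 12.2 FPKM, TpnC73F at 11.3 and 6.01 FPKM and bent (bt) at 6.22 and 4.27 FPKM, and the flight muscle actin gene Act88F was listed at 0 in both. Neuron markers summed to 71.8 and 79.3 FPKM, of which Syt1 alone gave 54.4 and 62.8 FPKM, with Syx1A at 5.10 and 6.23 FPKM and elav at 4.04 and 3.34 FPKM. Ring gland markers summed to 186.03 and 180.7 FPKM, of which shroud (sro) gave 161.9 and 150.7 FPKM, with phantom (phm) at 6.543 and 10.8 FPKM and Akh at 8.38 and 7.55 FPKM. Oenocyte markers summed to 106.9 and 93.6 FPKM, Malpighian tubule markers to 37.2 and 42.6 FPKM and germ line markers to 8.33 and 7.39 FPKM. The largest tubule value was that of urate oxidase (Uro) at 21.3 and 21.7 FPKM and the largest germ line value that of vasa (vas) at 1.74 and 1.57 FPKM.

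Of 4393 genes with a mean of at least 10 FPKM, 107 were past 2-fold higher in replicate 2 and 70 lower. CG33333 stood at 0.202 and 175.9 FPKM, about 1 and 889 fragments, and CG42834, its near neighbour on 3R, at 0 and 86.4 FPKM, about 190 fragments in replicate 2. The small nuclear RNA snmRNA:331, now named a 7SK RNA gene, was at 167.6 and 0 FPKM on about 2 fragments, the small nucleolar RNA snoRNA:Psi18S-1377d at 59.5 and 0 FPKM on about 3, and CG42781 at 43.4 and 0 FPKM on about 1. The small nucleolar RNA snoRNA:Or-CD2 was higher in replicate 2, at 0.0880 and 126.1 FPKM, about 5.80 fragments in that library. Of 44 small nucleolar RNAs in the set, 20 were past 2-fold, and 18 of these 20 had fewer than 10 implied fragments in either library. Gaps of a few fragments lie within counting error, whereas LysB rested on about 14 and 2390.1 fragments and Sgs1 on about 46908 and 8233.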

How the data were processed

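Only the 2 Con libraries were used, and the 2 ND-75-i libraries were left out. The authors deposited FPKM per gene on 14146 lines per library, each with bounds and a status, per the file headers. Per the submitters' processing notes, Bowtie 0.12.2 was among the tools. Which program computed FPKM, on which annotation, build and strand setting, is not given in the sources used here, and coordinates are as deposited with 1 added to each start. Reads from overlapping, antisense or near-identical genes cannot be told apart.

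Lines were joined by locus, 5 symbols turned into dates were repaired by position, and lines of a symbol (93 symbols stood on more than 1) were summed. Of 13990 symbols, 13749 (98.28%) matched a current name, and a later Ensembl annotation gave exon lengths. Genes not OK in both libraries (93 with low data, 13 failed, 3 with too much data) were set aside. Shares are of the summed FPKM of OK genes, 851174 and 837017. Differences are log2 of FPKM plus a pseudocount of 1, and 2-fold refers to that scale, which understates differences of low genes. Fragments implied by a bound are the squared ratio of the FPKM to the SD that the upper bound implies at 2 SD, for symbols on 1 line. That step was chosen after seeing the data.

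No p-value is given, since 1 group has no contrast. Named genes are the 30 highest by mean, up to 4 members of each of 31 functional lists and 3 of each of 13 marker lists with the members below 1 FPKM, the 10 widest differences at a mean of at least 10 FPKM and 5 at 1000, genes not OK in a list, w, y, ND-75 and Mef2; other genes were named with their values in view. The genes and lists were chosen with earlier results of these data known, and the ribosomal lists by symbol pattern. The listed genes magro, Bckdha, GlyDH, Pnp, Cyp6a14 and don had no match. The 2-fold rule was run on simulated libraries with planted differences wider than 2-fold in 200 genes with a mean of at least 10 FPKM. All 200 were recovered, and 0 of the 13681 others were called. The simulated noise was small and held no counting error, so this checks the code and says nothing on low genes. Alternatives were other minima and pseudocounts, rescaling, all statuses, FPKM times length, the 10 highest genes left out and each library alone. Python 3.11.15, pandas 2.3.3, NumPy 2.4.6, SciPy 1.17.1 and matplotlib 3.10.9 were used.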

Additional observations from a re-analysis of the deposited data

How the results depend on the processing

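No paired analysis was possible because only 1 group is described and no result comes from a test. The classes by level moved by less than 1.5 times under every alternative run. A minimum of 5 FPKM in both libraries left 5997 expressed genes. Shares depend on length: FPKM times exon length gave 27.3% for the 10 highest genes, 13.2% for ribosomal proteins, 3.68% for the odorant-binding family and 13.6% for the storage list. Without the 10 highest genes the last 3 shares were 28.7%, 0.443% and 0%, since Obp99b and all genes of the storage list with an estimate are among them. Without the salivary gland list, an alternative chosen after seeing the data, they were 22.1%, 9.27% and 9.49%. Pearson's r was 0.967 and 0.977 at pseudocounts of 0.1 and 5, 0.974 with no low filter, 0.936 at a mean of at least 10 FPKM, 0.970 without the 10 highest genes and, chosen after seeing the data, 0.972 without 5 marker lists of other tissues. The 329 genes past 2-fold became 529 and 157 at those pseudocounts, 514 with no low filter and 177 at a mean of at least 10 FPKM. Leaving out each library in turn gave 39874 to 85658 summed FPKM for salivary gland markers and 383.2 to 2783 for midgut markers. With 2 libraries no SD is better than rough, genes below 1 FPKM rest on a median of 1 fragment, and Lsp1beta, Lsp1gamma and Lsp2 cannot be ranked.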
